A study of Mus musculus with 5 samples.

Results

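The clustered histone genes are the 67 protein-coding genes whose symbols start with Hist1h, Hist2h, Hist3h or Hist4h, out of 22380 protein-coding genes in the GENCODE annotation of the mouse mm9 genome. The rule uses the symbol alone and no binding value, although it was set with earlier results of these data known. They comprise 6 genes for the linker histone H1 and 19, 18, 11 and 13 genes for the core histones H2A, H2B, H3 and H4. Chromosome 13 holds 55 of them, chromosome 3 holds 9, chromosome 11 holds 2 and chromosome 6 holds 1.

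Binding of the transcription factors SOX11 and SOX4 was mapped by chromatin immunoprecipitation and sequencing in primary mouse keratinocytes, the epithelial cells of the epidermis. All 5 libraries came from cells of the genotype Krt14-Cre;Sox11fl/fl;Sox4fl/fl on a mixed 129SvEx:C57BL/6 background, in which a keratin 14 promoter drives Cre recombinase and both Sox genes are floxed. By the study's methods that background is the one of the floxed mice, and the Krt14-Cre mice they were crossed to were FVB/N. In 2 libraries the cells carried a lentiviral SOX11-FLAG and in 2 a lentiviral SOX4-FLAG, each induced with doxycycline for a day and precipitated with an anti-FLAG antibody. The remaining library is a control that is titled as input and whose antibody entry is IgG. The binding is thus that of an introduced, tagged factor in cells made to lack both endogenous genes, and the control library gave no peak list.

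The authors' peak lists hold 21270 intervals for SOX11 and 2669 for SOX4, 1 list per factor for both replicates. They give coordinates without height, score or replicate values, so the depth is unknown, the spread between replicates cannot be computed, and no test was made. A share is therefore given with a 95% Wilson interval, which covers counting error only, and beside the share over all protein-coding genes. Neighbouring histone genes share peaks and are not independent. A gene was counted as having a peak when the centre of a peak lay within 5 kb of a transcription start. A distance with a minus sign is upstream of the start. The position of a peak in its list, counted from 1 at the top, is also given, although what the order stands for is not given in the sources used here.

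Histones H2A, H2B, H3 and H4 form the protein core that DNA is wrapped around in a nucleosome, and H1 binds the DNA that enters and leaves it. Most genes in the clusters are replication-dependent: they are transcribed in S phase, lack introns, and give messages that end in a stem-loop in place of a poly(A) tail. Many H2A and H2B genes lie head to head and share a short promoter interval, and near-identical copies of each class are spread through the clusters. SOX11 and SOX4 are SOXC transcription factors, whose HMG box binds a short motif with the core CATTGT or CTTTGT.

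Of the 18 SOX11 peaks that lay within 5 kb of a member, 8 held a match to the 10-base SOX motif with at most 1 mismatch on either strand. The best match of each of the 8 is printed with 10 bases on either side. Whether these matches bear on binding was not tested. In those of Hist1h4d, Hist1h2ab and Hist1h4a the mismatch falls in the core, so the match holds neither CATTGT nor CTTTGT. The capitals mark the match, the build is mm9, and each is written in the strand that is named.
Hist1h4j, chr13:21826190-21826219, minus, no mismatch: gcctgactttCCTTTGTTCTttggtctgcc
Hist1h1b, chr13:21870898-21870927, minus, no mismatch: ctcagttctcCCATTGTTCTcagttcttca
Hist3h2ba, chr11:58762199-58762228, minus: ttgtctgaacCCTTTGTTTCaacgggtacg
Hist1h4d, chr13:23677129-23677158, minus: cacatccggtCTTTTGTTCTaagtctttct
Hist1h2bm, chr13:21813719-21813748, plus: agtagctcacTCTTTGTTATtgactgaatg
Hist1h2ab, chr13:23841652-23841681, plus: ggttctctttTCATTCTTCTatacctctat
Hist1h2bg, chr13:23663271-23663300, plus: tttatctttcTCTTTGTTGCttgtttctac
Hist1h4a, chr13:23853023-23853052, minus: actccattttCCATTCTTCCtaagacatgt
The Hist1h4j and Hist1h1b windows hold an exact match and lie in peaks of both factors. The centre of the Hist1h4d peak lies in an untranslated exon of Hist1h2be and that of the Hist1h2bg peak in that gene's own untranslated exon. The centre of the Hist1h4a peak lies in a coding exon. The centres of the other 5 peaks lie between protein-coding genes. These places are those of the peak centres and not of the printed matches.

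The SOX11 peak upstream of Hist1h4j was the highest in the list among those at members, at position 541 of 21270. Its 258 bases are printed in full because the peak holds 3 SOX matches, 2 of which overlap each other, where no other SOX11 peak at a member holds more than 2. The capitals mark the matches on the plus strand of chr13:21826054-21826311 (mm9).
Hist1h4j upstream peak: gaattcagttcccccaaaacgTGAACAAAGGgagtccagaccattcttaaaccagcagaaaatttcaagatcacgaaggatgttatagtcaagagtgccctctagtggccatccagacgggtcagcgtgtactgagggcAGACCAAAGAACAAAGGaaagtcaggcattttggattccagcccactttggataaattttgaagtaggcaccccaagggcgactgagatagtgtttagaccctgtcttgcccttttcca
The capitals include ACAAAG, which is the SOX core CTTTGT read on the other strand, and the exact match is 22 bp from the centre of the peak.

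SOX11 peaks lay within 5 kb of 34 of the 67 histone genes (50.7%, interval 39.1 to 62.3), against 35.5% of all protein-coding genes. Closer to the start the share of members was the lower one, but with intervals that included the share of all genes. All genes are not matched to the members for repeated sequence, and genes of like uniqueness are compared further below. Within 1 kb, 14 members had a SOX11 peak (20.9%, interval 12.9 to 32.1), against 28.1% of all genes. Within 500 bp, 10 had one (14.9%, interval 8.31 to 25.3), against 25.2% of all genes. The shares were alike at 2 kb, with 29.9% of members and 30.5% of all genes, and at 10 kb they were 74.6% and 42.8%. Of the 34 members counted at 5 kb, 14 had a peak within 1 kb, and the others were counted through a peak farther from their own start.

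**Figure D1:**
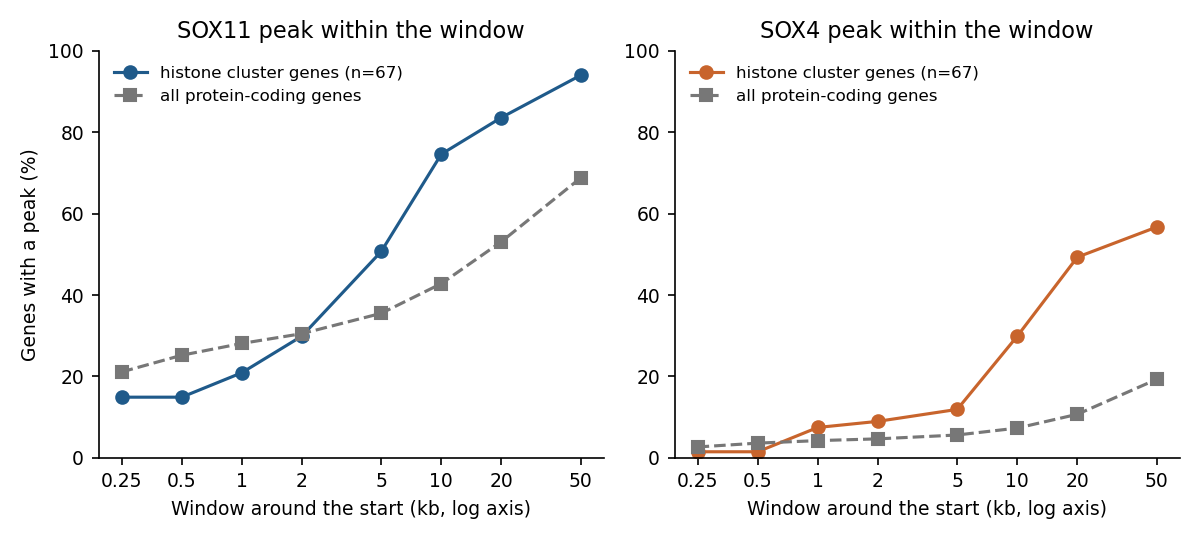
Share of genes (%) with a SOX11 peak (left) or a SOX4 peak (right) whose centre lies within a window around a transcription start, against the size of the window (kb, log axis), for the 67 histone genes and for all 22380 protein-coding genes. The SOX11 lines cross near 2 kb, from 14.9% against 25.2% at 500 bp to 74.6% against 42.8% at 10 kb. The interval of the members at 500 bp, 8.31 to 25.3, includes the 25.2% of all genes. All genes are not matched to the members for repeated sequence.

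The 34 genes were served by 18 distinct SOX11 peaks, 12 of which lay within 1 kb of a member. When each peak was counted only for the gene with the nearest start, the number of members fell from 34 to 18. The share of all genes under that rule is not given, so this count cannot be set against theirs. A single peak 16 bp after the start of Hist1h2bg was within 5 kb of 5 members, Hist1h2bg, Hist1h2ae, Hist1h2bf, Hist1h2ad and Hist1h3d. Hist1h1a, Hist1h3a and Hist1h4a each had 2 SOX11 peaks within 5 kb, shared among them. SOX4 peaks lay within 5 kb of 8 members (11.9%, interval 6.18 to 21.8), against 5.61% of all genes, and within 1 kb of 5 members (7.46%), against 4.23% of all genes, which is inside the interval of 3.23 to 16.3. Within 500 bp, 1 member had a SOX4 peak (1.49%), and its interval of 0.264 to 7.98 includes the 3.61% of all genes. All 8 also had a SOX11 peak within 5 kb, and 33 members had a peak of neither factor.

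Among the linker histone genes, 2 of 6 had a SOX11 peak within 5 kb. Hist1h1a had a peak 6 bp before its start, the closest of any member, at list position 20208. Hist1h1b had a peak 1518 bp after its start, beyond the end of the gene, at position 17183, with a SOX4 peak at 1527 bp that covered all of its 258 bases. The nearest SOX11 peaks were 8.29 kb from Hist1h1d, 11.1 kb from Hist1h1c and 37.2 kb from Hist1h1e. The testis-type gene Hist1h1t lay just outside the window, at 5.22 kb. The start of Hist1h1a sits inside its peak, and its upstream sequence is printed with the CCAAT box in capitals, from chr13:23855387-23855536 on the plus strand.
Hist1h1a upstream: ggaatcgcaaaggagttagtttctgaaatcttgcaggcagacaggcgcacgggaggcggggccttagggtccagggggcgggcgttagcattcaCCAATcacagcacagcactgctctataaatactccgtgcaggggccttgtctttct
The peak at Hist1h1a held no match to the SOX motif or to its core.

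Among the H2A genes, 6 of 19 had a SOX11 peak within 5 kb and 2 within 1 kb. Hist1h2ae had a peak at -192 bp, which is the peak at its divergent partner Hist1h2bg. Hist3h2a, in the small cluster on chromosome 11, had a peak 943 bp after its start, in an untranslated exon, and a SOX4 peak at 967 bp, the only SOX4 peak at an H2A gene. The start of Trim17 is equally near to that SOX11 peak. The other 4 lay farther, with Hist1h2ab at -1212 bp, Hist1h2ag at 1573 bp, Hist1h2ad at -2969 bp and Hist1h2ak at 3223 bp. Of the 13 without a peak, Hist1h2ai missed the window narrowly, with its nearest peak at -5.13 kb. The others were Hist1h2an, Hist1h2ao, Hist1h2ap, Hist1h2ah, Hist1h2af, Hist1h2ac, Hist1h2al, the testis-type Hist1h2aa and all 4 H2A genes on chromosome 3, Hist2h2ab, Hist2h2ac, Hist2h2aa1 and Hist2h2aa2.

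Among the H2B genes, 9 of 18 had a SOX11 peak within 5 kb and 4 within 1 kb. Hist1h2bg had its peak at 16 bp, over the start. Hist3h2ba on chromosome 11 had a peak at -211 bp that stood at list position 2510, the third earliest among the members' peaks. Hist1h2bm had one at -211 bp too, at position 14393. That peak lay inside the annotated span of the pseudogene Hist1h2aj (chr13:21813311-21814000, minus strand). Its centre was at -25 bp from an annotated transcript start within that span. Hist1h2bh had a SOX11 peak at -928 bp and a SOX4 peak at -875 bp, both nearer to its partner Hist1h3f. Hist1h2bj, Hist1h2bf, Hist1h2bb, Hist1h2bn and Hist1h2bl had peaks between -3439 bp and 4862 bp from the start. No peak was within 5 kb of Hist1h2bp, Hist1h2bq, Hist1h2br, Hist1h2bk, Hist1h2bc, the testis-type Hist1h2ba, or Hist2h2be and Hist2h2bb on chromosome 3. Hist1h2be was also counted as without a peak, since its annotated start lay 35.8 kb from the nearest SOX11 peak, although peaks of both factors lay in an untranslated exon of the gene.

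Among the H3 genes, 8 of 11 had a SOX11 peak within 5 kb but 2 had one within 1 kb. Hist1h3f, at chr13:23635921-23636924, had a SOX11 peak at 235 bp and a SOX4 peak at 182 bp, in its untranslated exon, with 246 bases in common. It was the only member with a SOX4 peak within 500 bp of its start. Hist1h3e had a SOX11 peak at -958 bp and a SOX4 peak at -620 bp, which did not overlap and were 39 bases apart. It was the only member where peaks of both factors lay side by side without overlap. The other 6 had their nearest peak at 1237 bp (Hist1h3a), -2391 bp (Hist1h3b), 4205 bp (Hist1h3h), -4274 bp (Hist1h3c), 4290 bp (Hist1h3i) and -4351 bp (Hist1h3d). In each of these 6 the peak was nearer to the start of another histone gene. Hist1h3g was 8.87 kb from a SOX11 peak, and Hist2h3c1 and Hist2h3b on chromosome 3 had none within 5 kb.

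Among the H4 genes, 9 of 13 had a SOX11 peak within 5 kb and 5 within 1 kb, the largest count at starts of any class. The distances were -24 bp for Hist1h4i, 81 bp for Hist1h4a, -179 bp for Hist1h4k, -232 bp for Hist4h4 and -721 bp for Hist1h4j. Hist2h4 followed at 1064 bp, Hist1h4c at -2573 bp, Hist1h4d at 3687 bp and Hist1h4b at 4212 bp. For 8 of the 13 H4 genes, the gene's own start was the nearest protein-coding start to a SOX11 peak, as it was for 4 of 18 H2B, 2 of 6 H1, 2 of 19 H2A and 2 of 11 H3 genes. The 4 without a peak were Hist1h4m, Hist1h4n, Hist1h4h and Hist1h4f. All 13 genes are predicted to encode 1 and the same protein of 103 residues, so the 9 genes with a peak and the 4 without code for the same H4. By the same comparison of coding sequences, the 6 H1 genes encode 6 proteins, the 19 H2A genes 10, the 18 H2B genes 12 and the 11 H3 genes 3.

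**Figure D2:**
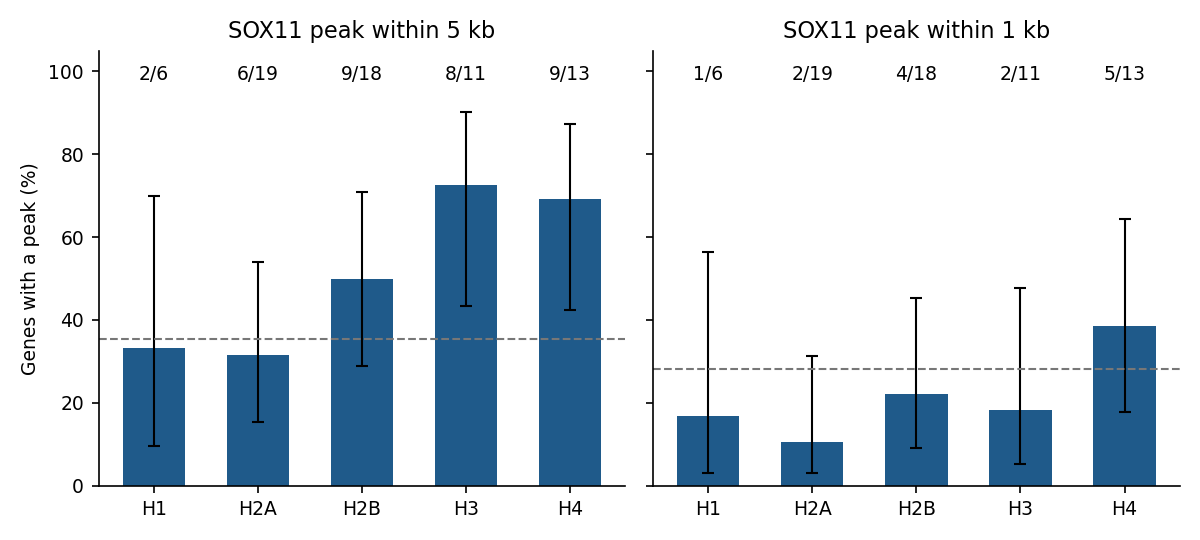
Share of histone genes of each class (%) with a SOX11 peak within 5 kb (left) and within 1 kb (right) of a start; error bars are 95% Wilson intervals, the fractions are numbers of genes, and the dashed line is the share over all protein-coding genes. At 5 kb the bars of H2B (9 of 18), H3 (8 of 11) and H4 (9 of 13) reach above the line, with the H2B interval across it, while at 1 kb the bar of H4 (5 of 13) alone does, and the H4 interval at 1 kb, 17.7 to 64.5, includes the line at 28.1.

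The H3 and H4 counts at 5 kb, 72.7% (interval 43.4 to 90.3) and 69.2% (interval 42.4 to 87.3), had intervals above the 35.5% of all genes. These intervals treat genes as independent, while neighbouring members of both classes share peaks, so they do not set H3 or H4 apart. The H2B share was 50.0% (interval 29.0 to 71.0), above that of all genes but with an interval that includes it. The H2A share was 31.6% (interval 15.4 to 54.0) and the H1 share 33.3% (interval 9.68 to 70.0). At 1 kb the interval of every class included the 28.1% of all genes, so no class was set apart at its starts at these numbers of genes.

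**Figure D3:**
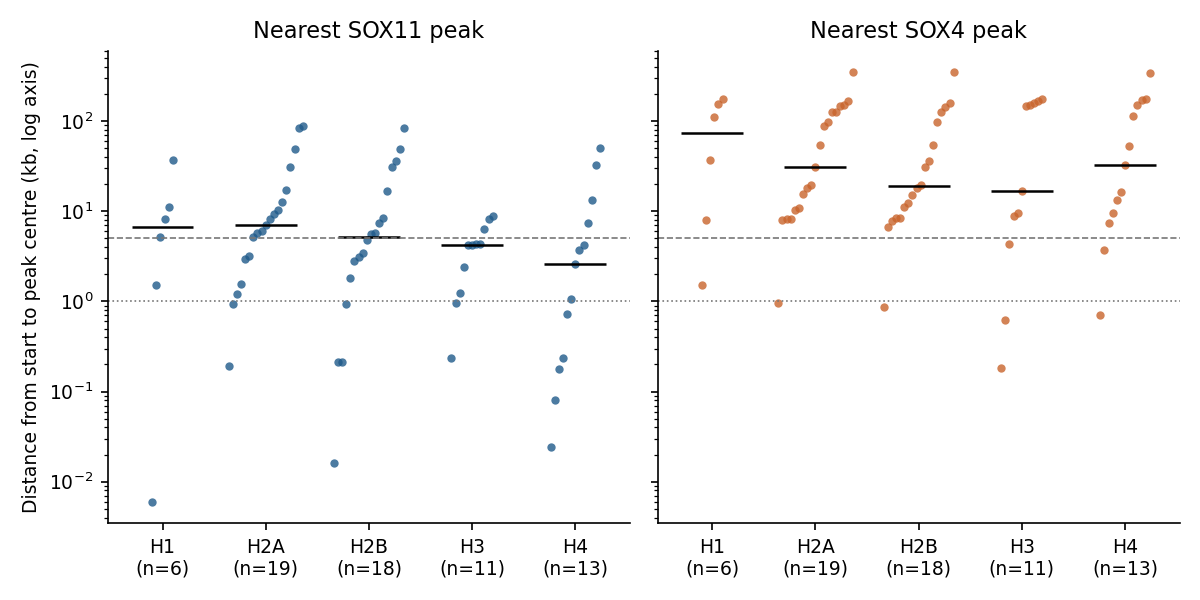
Distance from the start of each of the 67 histone genes to the centre of its nearest SOX11 peak (left) and SOX4 peak (right), in kb on a log axis; points are genes, black bars are medians of the class, and lines mark 5 kb (dashed) and 1 kb (dotted). The H4 points reach from Hist1h4i, at -24 bp, to Hist1h4n, at -50.6 kb, and the nearest SOX4 peak is more than 100 kb away for many genes, up to 349 kb for Hist1h2ba.

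The counts are given by cluster without a test of a difference, beside the same 35.5% of all genes at 5 kb. Chromosome 13 holds a group of 23 members in 338 kb (chr13:21802632-22140545, flanks of 5 kb included), a group of 31 in 414 kb (chr13:23617919-24031720), and Hist1h2al alone. In the first group 12 members (52.2%, interval 33.0 to 70.8), and in the second 18 (58.1%, interval 40.8 to 73.6), had a SOX11 peak within 5 kb. The 338 kb group held 12 SOX11 peaks, 6 of them at members. The other 6 lay between 41503 bp and 90278 bp from the nearest histone gene, among them a peak 253 bp from the start of the zinc finger gene Zfp184 at list position 1894. The 414 kb group held 9 SOX11 peaks, and 8 were at members. The density of SOX11 peaks was 3.55 and 2.17 per 100 kb, against 0.806 per 100 kb over the genome. These groups are dense in genes, with 6.81 and 7.49 members per 100 kb. The density of peaks was not scaled to that of genes, so it is no measure of peaks per gene.

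On chromosome 3, 1 of 9 members had a SOX11 peak within 5 kb (11.1%, interval 1.99 to 43.5), and none had one within 1 kb, where all genes stood at 28.1%. The interval at 5 kb includes the share of all genes and overlaps those of both groups on chromosome 13. The member with a peak was Hist2h4, with a peak of 61 bases in its untranslated exon. The interval of 69.1 kb nevertheless held 4 SOX11 peaks, 5.79 per 100 kb. The 3 others lay 5766 bp and 6359 bp from the start of Hist2h2be and 8175 bp from that of Hist2h3c1, outside the window. No SOX4 peak lay in this cluster, and the nearest SOX4 peak to any of the 9 starts was at -126 kb, from Hist2h2ab. On chromosome 11 both members, Hist3h2a and Hist3h2ba, had a SOX11 peak within 1 kb.

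On chromosome 6, the single member Hist4h4 (chr6:136752589-136752900) had a SOX11 peak of 65 bases at list position 1109, which had the lowest GC content of all SOX11 peaks, 24.6%. It is printed for that reason, from chr6:136753101-136753165 on the plus strand, with no letters in capitals as these 65 bases hold no SOX or AP-1 match.
Hist4h4 upstream peak: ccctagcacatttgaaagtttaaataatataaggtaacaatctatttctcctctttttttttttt
The variant gene H2afj lies on the other side of this peak, and the peak lies at -3636 bp from its start. The Hist4h4 and Hist2h4 peaks are among only 15 SOX11 peaks that are narrower than the common 258 bases. All 15 have an edge at a multiple of 100, against 1.96% of the peaks of common width, and the authors subtracted blacklisted regions from the lists. The part of that step in the narrow widths was not tested. The GC content and the lack of a match at Hist4h4 are those of the listed bases, and neither was computed at the common width. The stretch chr6:136752901-136753050, between the Hist4h4 start and the listed peak, holds a SOX core. If the common width were restored from the other edge, the centres would lie at -136 bp from the start of Hist4h4 and at 966 bp from that of Hist2h4, so that Hist2h4 would enter the count at 1 kb.

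SOX4 peaks at the histone genes were 6 in number, and every member they reached can be named. Hist1h4j had a SOX4 peak at -711 bp that covered the whole of its SOX11 peak, at list position 824 of 2669. Hist3h2a followed at position 1665. The other 4 peaks, at Hist1h4d, Hist1h1b with Hist1h3i, Hist1h3e, and Hist1h3f with Hist1h2bh, stood near the bottom of the list, at positions 2553, 2619, 2620 and 2640. Of the 6, 5 overlapped a SOX11 peak (83.3%, interval 43.6 to 97.0), against 91.4% of SOX4 peaks within 5 kb of any start. Conversely 5 of the 18 SOX11 peaks overlapped a SOX4 peak (27.8%, interval 12.5 to 50.9), against 12.4% of SOX11 peaks within 5 kb of any start, a share just below that interval.

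The SOX4 peak at Hist1h3e, which lay apart from the SOX11 peak, held its own SOX match with 1 mismatch. The sequence is shown beside that of the neighbouring SOX11 peak, which had no SOX match but held the AP-1 core TGAGTCA, the site of FOS and JUN proteins. The 3 AP-1 windows are from the only member SOX11 peaks that held a match to the 10-base AP-1 motif. Capitals mark the match, and all are on the plus strand of mm9.
Hist1h3e, SOX4 peak, SOX match, chr13:23654920-23654949: cagcacgatcTCTTTGTTTTgtgttggagc
Hist1h3e, SOX11 peak, AP-1 core, chr13:23655101-23655130: tcaggcacagaTGAGTCAgcttattttcaa
Hist1h2ab, SOX11 peak, AP-1 core, chr13:23841696-23841725: ttatcagacacTGAGTCAtgagacgtgccc
Hist1h4c, SOX11 peak, AP-1 core, chr13:23792842-23792871: cccagcaggcaTGAGTCAcctcttgaagga
These 3 SOX11 peaks lay at -958, -1212 and -2573 bp, upstream of the promoters and not at the starts.

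Matches to the SOX motif were in 8 of the 18 member SOX11 peaks (44.4%, interval 24.6 to 66.3), against 39.9% of SOX11 peaks within 5 kb of any start and 47.3% of all SOX11 peaks. The narrow peaks at Hist4h4 and Hist2h4, of 65 and 61 bases, are among those without a match and had fewer bases to search. The AP-1 motif was in 3 of 18 (16.7%, interval 5.84 to 39.2), against 22.5% near any start and 41.1% of all SOX11 peaks. The share among all peaks lay above the interval, and the share near any start lay inside it. The SOX core was in all 6 SOX4 peaks at members, the 10-base SOX motif in 5 of 6 and the AP-1 motif in none. Members' SOX11 peaks stood low in the list, with a median position of 14298, against 9343 for peaks within 5 kb of any start and 10636 for all. Their median GC content was 47.7%, against 60.9% and 51.6%.

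Head-to-head arrangement, with starts within 1 kb of each other, was found for 13 pairs of members, 12 of them an H2A and an H2B gene with 168 to 306 bp from start to start. A SOX11 peak lay between the starts or within 500 bp of them in 2 of 13 pairs, Hist1h2ae/Hist1h2bg and Hist1h2bh/Hist1h3f. The second, an H2B and an H3 gene 693 bp apart, was the only pair with a SOX4 peak. Counted by gene, 3 of the 26 members in such pairs (11.5%) and 7 of the 41 outside them (17.1%) had a SOX11 peak within 500 bp of the start, against 25.2% of all genes. The whole interval of the H2A and H2B pair with a peak is printed beside that of a pair of like length without one, both on the plus strand, with CCAAT boxes and the octamer in capitals.
Hist1h2ae/Hist1h2bg, chr13:23663090-23663264, peak at the Hist1h2bg end: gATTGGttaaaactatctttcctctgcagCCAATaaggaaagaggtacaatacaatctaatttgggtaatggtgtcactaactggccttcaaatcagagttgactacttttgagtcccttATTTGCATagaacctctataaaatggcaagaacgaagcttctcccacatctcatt
Hist1h2ah/Hist1h2bk, chr13:22127513-22127689, no peak: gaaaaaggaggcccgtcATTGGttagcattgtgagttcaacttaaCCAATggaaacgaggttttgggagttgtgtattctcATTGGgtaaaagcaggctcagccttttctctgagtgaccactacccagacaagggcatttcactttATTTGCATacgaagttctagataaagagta
Both hold CCAAT boxes in both orientations and 1 octamer each, near the H2B end. A SOX core lay between the starts in 1 of 13 pairs, and that was Hist1h2ah/Hist1h2bk, which had no peak.

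The promoters of the members, taken from 250 bases before to 50 after the start, were searched on both strands for 6 short motifs. CCAAT, the site of the NF-Y complex, was in 57 of 67 (85.1%), against 38.0% of all protein-coding promoters. It was in all 6 H1, 19 H2A and 18 H2B promoters and in 10 of 11 H3 promoters, but in 4 of 13 H4 promoters. TATAAA was in 56.7% of members and 13.5% of all promoters. The octamer ATTTGCAT, the site of OCT1, was in 7 H2A and 8 H2B promoters and in none of the H1, H3 or H4 promoters, and it was in 1.73% of all promoters. GGGCGG, a GC box, was in 41.8% of members and 43.5% of all promoters, with 10 of 13 H4 and 1 of 11 H3 promoters at either end. That H3 promoter is the one taken for Hist2h3c1, annotated from chr3:96049477, beside the H2A gene Hist2h2aa1, annotated from chr3:96049461. These promoters cover nearly the same bases, so their GC box, CCAAT and TATAAA matches are counted in both classes.

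The SOX core was in 17 of 67 member promoters (25.4%), near the 26.0% of all promoters. It was in 7 of the 14 members with a SOX11 peak within 1 kb and in 10 of the 53 without. The same split over all promoters is not given, and some of the 14 share a peak. A link between the core and the peaks was not tested. The AP-1 core, TGAGTCA or the other form TGACTCA, was in no member promoter and in 4.42% of all promoters. Hist1h4i is an H4 promoter that holds a SOX core close to its start, and it is printed with that core in capitals on the minus strand of chr13:22133222-22133371.
Hist1h4i upstream: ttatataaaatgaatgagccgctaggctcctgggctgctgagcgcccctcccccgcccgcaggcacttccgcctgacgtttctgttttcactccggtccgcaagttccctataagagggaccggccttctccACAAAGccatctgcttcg
The peak centre at this gene lay 24 bp before the start, within the printed stretch, and the peak held no match to the 10-base SOX motif.

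**Figure D4:**
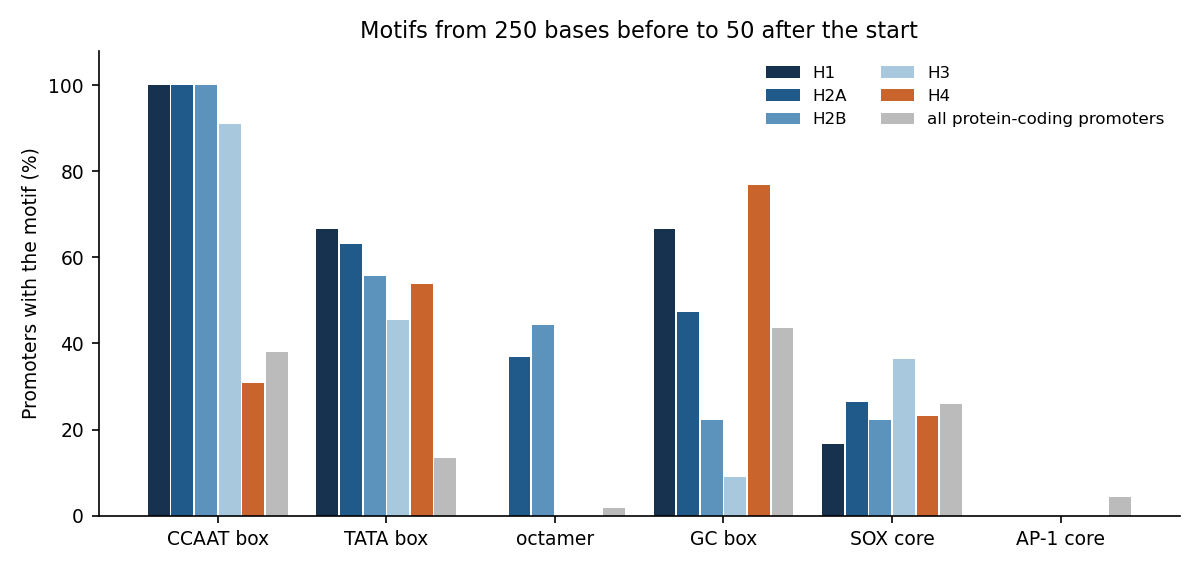
Share of promoters (%), from 250 bases before to 50 after the start, that hold each motif on either strand, for the histone classes and for all protein-coding promoters. CCAAT is in at least 90.9% of H1, H2A, H2B and H3 promoters and in 30.8% of H4 promoters, the octamer is in H2A and H2B promoters alone among the classes, and no class holds the AP-1 core.

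The histone genes are near-copies of each other, and the reads were 50 bases long, so the share of 50-base windows that occur once in the genome was computed within 500 bp of each start. Over the members the median was 70.7%, from 0 to 100%, and 57 of 67 were under 90%, against 14.4% of all protein-coding genes. The repeated letters lay mostly in the genes themselves: the median was 100% for the 500 bases before the start and 42.5% for the 500 after it. By class, the median over both sides was 93.2% for H1, 54.8% for H2A, 57.6% for H2B, 66.7% for H3 and 79.7% for H4.

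**Figure D5:**
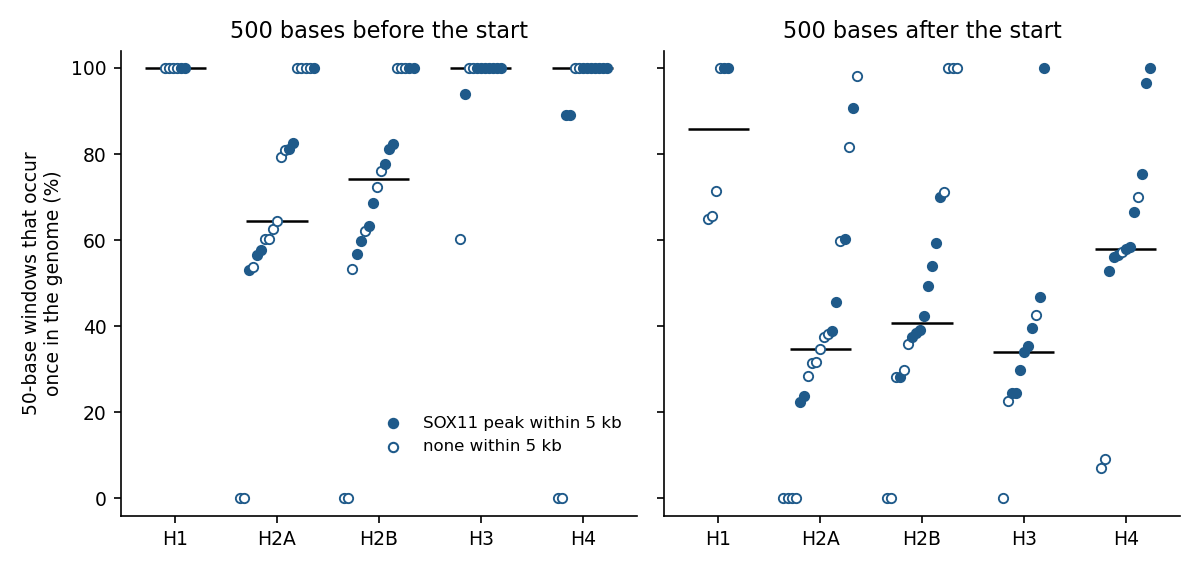
Share of 50-base windows that occur once in the genome (%), in the 500 bases before (left) and after (right) the start of each histone gene; filled points have a SOX11 peak within 5 kb, open points have none, and black bars are medians of the class. The 6 genes at 0% before the start are open points, and after the start the medians of H2A, H2B and H3 lie between 34.1% and 40.7%.

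The median over members with a SOX11 peak within 5 kb was 71.6%, with the lowest at 42.5% and 2 of 34 under 50%. Over those without a peak it was 59.9%, with the lowest at 0 and 13 of 33 under 50%. The genes without a peak include the most duplicated members: Hist1h2ao, Hist1h2ap, Hist1h2bq and Hist1h2br had no unique window at all, and Hist1h4m and Hist1h4n had 5.78% and 4.83%. The 167 bases between the starts of Hist1h2bq and Hist1h2ao are identical, on the opposite strand, to those between Hist1h2ap and Hist1h2br. Over all protein-coding genes, a SOX11 peak lay within 1 kb of 6.81% of those under 90% unique and of 31.7% of the rest, and within 5 kb of 11.2% and 39.6%.

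Among the members the split by uniqueness gave like shares at 5 kb, with 5 of 10 genes at 90% or more and 29 of 57 below it. At 1 kb it gave 3 of 10 (30.0%, interval 10.8 to 60.3) and 11 of 57 (19.3%, interval 11.1 to 31.3). Of all protein-coding genes at 90% or more, 31.7% had a peak within 1 kb, which lies inside the interval of the 10. Of all those under 90%, 6.81% had one, which lies below the interval of the 57. Beside genes that are also under 90% unique, the share of members at 1 kb was thus the higher one. Those genes were matched in nothing else. Of the 18 member SOX11 peaks themselves, 13 consisted of at least 90% unique windows, and the lowest was 83.7%. The part of repeated sequence in the share of histone starts with a peak was not tested.

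Histone genes outside the clusters were compared through a list of 12 variant genes, of which 11 were found in the annotation (H1f0 was not matched). These encode replacement histones that are made outside S phase as well. SOX11 peaks lay within 5 kb of 9 of 11 (81.8%, interval 52.3 to 94.9) and within 1 kb of 7 of 11 (63.6%, interval 35.4 to 84.8). At 1 kb the share was 28.1% of all genes and 20.9% of the clustered genes. The share of unique windows at the variant starts is not given, so the variant and clustered genes are not matched for repeated sequence. Peaks lay at the starts of H3f3a (-22 bp, list position 1042) and H3f3b (-128 bp), which encode H3.3. They also lay at H2afz (17 bp) and H2afv (-16 bp), which encode H2A.Z, at H2afy (-22 bp) for macroH2A, at H2afx (-291 bp), and at Cenpa (-7 bp) for the centromeric H3. H2afy2 had a peak at 1059 bp, and H2afj had the peak it shares with Hist4h4. H1fx and the oocyte gene H1foo had none. H3f3a was the only one with a SOX4 peak, at 94 bp.

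Of 22 genes that regulate histone gene transcription, process the messages or carry the proteins, 15 had a SOX11 peak within 5 kb (68.2%, interval 47.3 to 83.6). A SOX4 peak lay within 5 kb of 4 (18.2%, interval 7.31 to 38.5), against 5.61% of all genes. Npat, the coactivator of the clusters, had a SOX11 peak at -108 bp, and Hinfp, the factor that binds H4 promoters, at -78 bp. All 3 NF-Y subunit genes had one at their starts, Nfya at 2 bp, Nfyb at 8 bp and Nfyc at 13 bp. Of the E2F genes, E2f1 had a peak at -150 bp, E2f3 at -513 bp and E2f2 at -2906 bp. Among the genes for processing of the 3′ end, Lsm10 (-49 bp), Zfp473 (-121 bp) and Cpsf2 (9 bp) had one. Among the chaperone genes, Asf1a (-138 bp), Chaf1b (-128 bp), Nasp (663 bp) and Chaf1a (-3681 bp) had one. The 4 with a SOX4 peak were Nfya, Asf1a, E2f3 and Nasp. No peak of either factor was within 5 kb of Casp8ap2, Slbp, Lsm11, Cpsf3, Sympk, Pou2f1 or Asf1b. The intervals of the variant and regulator shares for SOX11 at 5 kb lie above the 35.5% of all genes.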

How the data were processed

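The authors mapped single-end reads of 50 bases to mm9 with Bowtie2, discarded non-nuclear, unmapped and low-quality reads, removed duplicates with Picard MarkDuplicates, called peaks with HOMER in factor style, and subtracted mm9 blacklisted regions with bedtools. Tool versions, thresholds and the control used are not given in the sources used here. The deposited values are chromosome, start and end of each peak, which are neither counts nor signal. Starts were read as 0-based and are printed from 1.

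Genes and starts came from GENCODE M1 on mm9. Every annotated transcript start was used. Peaks were placed by their centre. Sequence and motifs (1 mismatch allowed for the 10-base SOX and AP-1 motifs, none for shorter ones) were read from the mm9 genome with Python 3.11.15, pysam 0.24.0 and samtools 1.23.1, and figures were drawn with matplotlib 3.10.9. Occurrences of 50-base windows were counted on both strands. Overlaps of at least 1 bp counted. Neighbouring members on 1 chromosome over 500 kb apart were put in separate groups. Counting, distance and motif steps were tested on simulated data. Named were members with a SOX4 peak, those with the earliest SOX11 peaks, all on chromosomes 3, 6 and 11, the testis-type genes, and members without a peak by class; the others with a peak were named after their values were seen. The members, gene lists and motifs were chosen with earlier results of these data known.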

Additional observations from a re-analysis of the deposited data

How the results depend on the processing

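No paired analysis was possible because each list joins both replicates of its factor, and no replicate could be left out for the same reason. Of 39 alternatives to 16 counts and shares, 18 stayed within 1.5 times the count or within the interval of the share, and 21 moved. A window of 500 bp, chosen after seeing the data, gave 10 members with a SOX11 peak and 1 with a SOX4 peak. A window of 1 kb gave 14 and 5 members. It left 1 H1, 2 H2A, 4 H2B, 2 H3 and 5 H4 genes with a SOX11 peak, 11 members on chromosome 13 and 0 on chromosome 3. A window of 2 kb gave 20 members for SOX11, and 10 kb gave 20 for SOX4. Counting a peak for the nearest gene alone gave 18 members for SOX11. The upper part of each list, cut at its middle row, gave 7 members for SOX11 and 1 for SOX4. Shares of all genes under the nearest-gene rule and for the upper part are not given, so these counts cannot be set against them. An exact SOX motif lowered the share of member SOX11 peaks with a match to 11.1%. Among genes at least 90% unique at 50 bases, 0 H2A, 0 H2B, 1 H3 and 2 H4 genes had a SOX11 peak, since only 10 members remained. The windows set the result by construction, and what the order of the lists stands for was not tested. Without heights or replicate lists, a gene without a peak cannot be told from one below the caller's threshold.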

Other observations

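The annotation holds 3 histone pseudogenes with symbols of the same form, which were not members. Hist1h2aj had a SOX11 peak inside its span, at -25 bp from an annotated transcript start, and it was the peak that was counted for Hist1h2bm. Hist3h2bb-ps, on chromosome 11, had the SOX11 peak of Hist3h2a at -1116 bp and its SOX4 peak at -1140 bp. Hist2h3c2, on chromosome 3, had no peak of either factor within 5 kb. In the group of 23 members on chromosome 13, 3 of the 5 SOX4 peaks lay far from any histone gene, at Zfp184 (222 bp from its start), 6561 bp from the start of Pom121l2, and 26018 bp from that of Zfp184. Each of these 3 overlapped a SOX11 peak.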
